A study of Mus musculus with 6 samples.

Results

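The genes of cholesterol and myelin lipid synthesis were compared between mouse tissue labelled as *Nf1fl/fl;DhhCre* dorsal root ganglion (DRG) and tissue labelled as neurofibroma tumor and floxed for *Runx1* and *Runx3* (Runx1/3 dKO). The members were a named list of 36 genes, taken by symbol from the 24062 genes counted in each library, with no threshold on their values but with earlier results of these data known, so the counts below are not free of that choice. All 36 were found and all 36 were among the 15652 genes with enough reads to test, with at least 32 reads in every library for the least covered member. They comprised 7 genes of the mevalonate arm, 11 from squalene to cholesterol, 5 of sterol regulation and transport, 9 of fatty acid synthesis, elongation and desaturation, and 4 of myelin sphingolipid synthesis.

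RNA was from 3 *Nf1fl/fl;DhhCre* mice and 3 Runx1/3 dKO mice of strain background C57BL/6-I129. Cre under the *Dhh* promoter acts in the Schwann cell (SC) lineage, so other cells of the dissected tissue, such as neurons and immune cells, keep intact copies of the floxed genes. Recombination by cell type was not measured here. The labels leave *Nf1fl/fl* out of the dKO genotype, which the study's methods state for both groups, and they call the tissue DRG in 1 group and neurofibroma tumor in the other, where the study's methods say DRG/tumor for both and its results text has tumors for *Nf1fl/fl;DhhCre* and DRG/tumors for the other group. The sources thus differ on the tissue, and any such difference and genotype cannot be told apart. Sensory neuron markers, which DRG holds, were higher in the group labelled as tumor (values below). The ages of these mice and any treatment were not given in the sources used here. Counts summed to between 12439296 and 16682194 per library. *Runx1* was at 131, 141 and 172 CPM (counts scaled to the size of the library) for *Nf1fl/fl;DhhCre* replicates 1 to 3. Runx1/3 dKO replicates 1 to 3 read 84.0, 78.9 and 185 CPM, so that the last lay above every *Nf1fl/fl;DhhCre* library. Cells that keep intact copies can add *Runx1* reads, so this level does not settle the genotype of that library. *Runx3* did not overlap between the groups, at 15.1 to 29.9 CPM and at 10.3 to 13.6 CPM. Group names below are therefore the labels, and the counts of calls are also given without Runx1/3 dKO replicate 3, a fit in which 8.79% of all genes were higher and 3.92% lower. That replicate is also, by its label, the only library from another sequencing run than the other 5, so run and replicate cannot be told apart. Mouse numbers in the labels and the deposited tables are exchanged between Runx1/3 dKO replicates 2 and 3, so which of them came from that run is not certain. The libraries included 1 male among the *Nf1fl/fl;DhhCre* and 2 males among the Runx1/3 dKO, as read from *Xist* and *Ddx3y*.

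Cholesterol is built from acetyl-CoA through mevalonate and isoprenoids to squalene, which is cyclised to lanosterol and trimmed to cholesterol. The enzymes are controlled together by the SREBP transcription factors, which SCAP escorts out of the endoplasmic reticulum when sterols are low and which INSIG proteins hold back when sterols are high. Myelinating SCs make most of the cholesterol of their myelin themselves, along with very long fatty acids and the galactosylceramides and sulfatides that give myelin its characteristic lipid composition. In bulk tissue, more cells of a type and more RNA per cell cannot be told apart.

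Of the 36 members, 17 were higher in Runx1/3 dKO and 0 were lower (limma-voom, adjusted p below 0.05 with Benjamini-Hochberg adjustment over all 15652 genes). Among all genes tested, 11.1% were higher and 8.22% were lower by the same rule. Members past 2-fold numbered 12 higher and 0 lower, where 8.03% and 5.36% of all genes were. In 22 members every Runx1/3 dKO library lay above every *Nf1fl/fl;DhhCre* library, and in 0 did they all lie below, where 21.8% and 20.5% of all genes showed such a separation. For the 0 members lower, the count at an unadjusted p under 0.05 was also 0, as 22 members passed that limit and all of these were higher, and edgeR and DESeq2 also called 0 lower. The log2 fold change was above 0 in 34 of 36 members, with a median of 0.91 beside 0.02 over all genes tested, and ranged from -0.20 for *Fads2* to 2.22 for *Ugt8a*. The calls fell in all of the 5 roles, with 5 of 7 in the mevalonate arm, 6 of 11 from squalene to cholesterol, 1 of 5 regulators, 2 of 9 fatty acid genes and 3 of 4 sphingolipid genes.

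**Figure D1:**
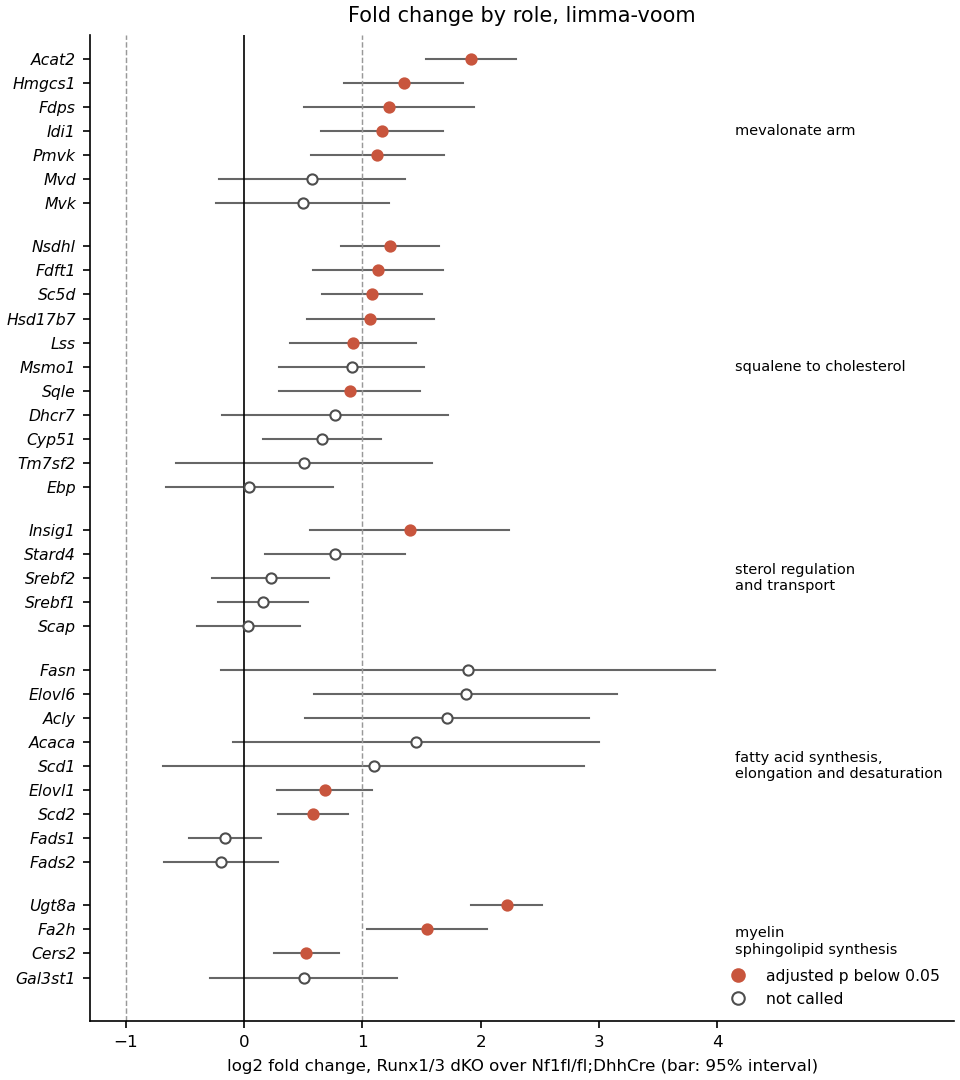
Log2 fold change (horizontal axis, Runx1/3 dKO over *Nf1fl/fl;DhhCre*) of each of the 36 genes, grouped by role, with its 95% interval from limma-voom as a bar and dashed lines at a 2-fold change. Filled points are the 17 genes called higher, and the intervals of *Fasn*, *Acaca* and *Scd1* are the widest, each reaching below 0.

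Promoter stretches are shown for 3 genes of the cholesterol arms, where 11 of 18 genes were called, and for *Insig1* and *Ugt8a*, because the factors known to drive sterol genes, and the RUNX factors whose genes are labelled as floxed, bind short motifs. RefSeq promoter windows of GRCm38.p6 (250 bases before to 50 after the start) were found for 28 of the 36 members. The motifs searched on both strands were TGTGGT (RUNX), TCACNCCAC (sterol response element, SRE, bound by SREBP), CACGTG (E-box) and CCAAT (bound by NF-Y, a partner of SREBP, and spelled ATTGG on the other strand). No matches overlapped each other in the stretches below. Each line below gives the bases before the first exon base in RefSeq and GENCODE M21, 5′ to 3′ on the gene's strand and counted from at most 150 bases before the RefSeq start, with motif matches in capitals. *Hmgcs1* (chr13:119690201-119690350, plus strand) holds the SRE and a CCAAT match, and *Lss* (chr10:76531455-76531587, plus) a RUNX and a CCAAT match. *Nsdhl* (chrX:72918371-72918520, plus) holds a pair of CCAAT matches and *Insig1* (chr5:28071262-28071362, plus) an E-box. *Ugt8a* (chr3:125938653-125938802, minus), the member with the largest fold change with all libraries, has no match in its stretch or in the rest of its window.
Hmgcs1: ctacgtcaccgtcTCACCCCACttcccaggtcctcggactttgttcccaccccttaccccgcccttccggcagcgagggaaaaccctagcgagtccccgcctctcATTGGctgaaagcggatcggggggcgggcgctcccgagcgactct
Lss: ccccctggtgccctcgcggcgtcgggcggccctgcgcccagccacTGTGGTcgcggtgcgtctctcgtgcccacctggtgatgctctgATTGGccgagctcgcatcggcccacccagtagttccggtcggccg
Nsdhl: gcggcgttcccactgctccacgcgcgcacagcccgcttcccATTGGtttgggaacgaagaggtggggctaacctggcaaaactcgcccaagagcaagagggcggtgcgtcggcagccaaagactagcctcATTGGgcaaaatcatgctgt
Insig1: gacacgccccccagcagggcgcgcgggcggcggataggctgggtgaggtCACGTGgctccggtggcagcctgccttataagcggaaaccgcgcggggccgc
Ugt8a: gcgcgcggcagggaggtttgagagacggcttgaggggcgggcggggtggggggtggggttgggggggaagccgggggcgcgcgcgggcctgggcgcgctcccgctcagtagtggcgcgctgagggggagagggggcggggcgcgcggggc

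CCAAT was found in 22 of the 28 members' promoters (78.6%) and in 37.4% of all 32851 windows of the table. The E-box was found in 6 members (21.4%, *Hsd17b7*, *Sc5d*, *Dhcr7*, *Scap*, *Insig1* and *Cers2*) and in 7.15% of all windows. The SRE in the spelling searched was found in *Hmgcs1* alone (3.57% of members, 1.24% of all windows). The RUNX hexamer was found in 3 members (*Lss*, *Acly* and *Acaca*, 10.7%) and in 16.8% of all windows. Because 7 of the 28 members have more than 1 window and any of them counted, the share of genes with a match in any window is the closer comparison, at 41.1% for CCAAT, 8.09% for the E-box, 1.44% for the SRE and 18.9% for the RUNX hexamer. CCAAT was in 10 of the 12 matched members called higher and in 12 of the 16 not called. These are matches of letters in a window, and binding was not measured here.

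In the mevalonate arm, the step that turns acetyl-CoA into isoprenoid units, 5 of 7 genes rose in Runx1/3 dKO, all past 2-fold. *Acat2*, the cytosolic thiolase that joins a pair of acetyl-CoA molecules, was at 9.502, 9.651 and 9.237 CPM in *Nf1fl/fl;DhhCre* replicates 1 to 3 and at 33.4, 37.1 and 37.1 CPM in Runx1/3 dKO replicates 1 to 3. The libraries within each group were nearly level and the groups lay far apart, with means of 9.46 ± 0.210 and 35.9 ± 2.14 CPM (SD, n = 3 each). The *Acat2* log2 fold change was 1.92 (SE 0.16, limma-voom adjusted p = 0.00596), and without Runx1/3 dKO replicate 3 it was 1.89 (limma-voom adjusted p = 0.0140). *Acat2* lies on chromosome 17 of GRCm38 (12942890 to 12960747, minus strand), and how its reads were divided from those of a near-identical neighbouring thiolase gene is not stated.

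*Hmgcs1*, which makes HMG-CoA, was at 116, 91.9 and 91.7 CPM and at 199, 237 and 338 CPM, without overlap and with Runx1/3 dKO replicate 3 highest. Its log2 fold change was 1.35 (SE 0.21, limma-voom adjusted p = 0.0117). *Idi1*, the isomerase of isopentenyl diphosphate, was at 35.6, 29.1 and 33.9 CPM and at 56.4, 71.7 and 96.1 CPM, again in the same order of dKO libraries (log2 fold change 1.17, SE 0.22, limma-voom adjusted p = 0.0166). *Fdps*, the farnesyl diphosphate synthase, was at 9.502, 6.672 and 9.878 CPM and at 13.8, 21.3 and 26.1 CPM (log2 fold change 1.22, SE 0.31, limma-voom adjusted p = 0.0341), a call lost in 5 of the 6 fits that each dropped 1 library and with sex as a covariate. *Pmvk*, the phosphomevalonate kinase, differed from these in being highest in replicate 2, at 12.7, 15.0 and 9.17 CPM and at 23.75, 32.56 and 24.03 CPM (log2 fold change 1.13, SE 0.24, limma-voom adjusted p = 0.0220), and its call was lost in 3 of these 6 fits. The kinase and decarboxylase on either side of it, *Mvk* and *Mvd*, were among the members with fewest reads, at 2.22 to 6.45 CPM in *Nf1fl/fl;DhhCre* and 3.51 to 11.7 CPM in Runx1/3 dKO. They were not called, with log2 fold changes of 0.50 (95% interval -0.24 to 1.23) for *Mvk* and 0.57 (-0.21 to 1.36) for *Mvd*, intervals that include the size of change of their neighbours in the pathway.

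From squalene to cholesterol, 6 of 11 genes rose, 4 of them past 2-fold, and 8 of 11 did not overlap between the groups. *Fdft1*, the squalene synthase and the first enzyme committed to sterols, was at 69.4, 75.4 and 70.2 CPM and at 108, 177 and 200 CPM (log2 fold change 1.13, SE 0.24, limma-voom adjusted p = 0.0207), a call lost in 3 of the 6 leave-one-out fits. The *Nf1fl/fl;DhhCre* values lay close together, while the Runx1/3 dKO values spread widely with replicate 1 lowest. *Fdft1* (chromosome 14, 63145150 to 63179578) shares 774 exon bases with *Ctsb* on the opposite strand, and whether counting used strand is not stated, so reads there cannot be assigned to either.

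*Sqle*, the squalene epoxidase, was at 67.7, 62.7 and 76.5 CPM and at 92.6, 120 and 184 CPM (log2 fold change 0.89, SE 0.25, limma-voom adjusted p = 0.0486). *Lss*, which closes the rings of lanosterol, was at 34.4, 35.6 and 38.2 CPM and at 48.3, 80.8 and 80.9 CPM (log2 fold change 0.92, SE 0.23, limma-voom adjusted p = 0.0324). Both were below the 2-fold limit, and both lost the call in 5 of the 6 leave-one-out fits. Across *Fdft1*, *Sqle* and *Lss* the Runx1/3 dKO libraries kept 1 order, with replicate 1 lowest and replicate 3 highest.

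Of the demethylation complex at C4 of the sterol ring, 2 of 3 members were called. *Nsdhl*, its dehydrogenase on chromosome X (72918557 to 72958514), was at 36.5, 32.3 and 26.6 CPM and at 63.8, 83.9 and 75.7 CPM, a mean of 31.8 ± 4.95 against 74.5 ± 10.1 CPM (SD, n = 3). Its log2 fold change was 1.23 (SE 0.18, limma-voom adjusted p = 0.0100), and it was called in all 6 leave-one-out fits. *Hsd17b7*, the ketoreductase of the same complex, was at 24.6, 20.4 and 26.5 CPM and at 44.5, 40.3 and 66.2 CPM (log2 fold change 1.07, SE 0.23, limma-voom adjusted p = 0.0226). *Msmo1*, the oxidase of the complex, also did not overlap, at 16.8 to 19.8 CPM and 26.06 to 49.97 CPM, but narrowly missed the threshold (log2 fold change 0.91, SE 0.26, limma-voom adjusted p = 0.0508). *Sc5d*, the lathosterol desaturase, was at 37.3, 31.7 and 29.2 CPM and at 57.6, 82.1 and 68.7 CPM (log2 fold change 1.08, SE 0.18, limma-voom adjusted p = 0.0128).

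The other members of this arm were not called. *Cyp51*, the lanosterol demethylase, was at 90.3, 60.2 and 80.9 CPM and at 103, 109 and 152 CPM, without overlap (log2 fold change 0.66, SE 0.21, limma-voom adjusted p = 0.0687). *Dhcr7*, which takes 7-dehydrocholesterol to cholesterol, was at 23.7, 32.4 and 26.0 CPM and at 26.5, 42.8 and 84.4 CPM, so its mean difference rested mainly on Runx1/3 dKO replicate 3 and its log2 fold change of 0.77 fell to 0.31 without that replicate. *Tm7sf2*, a C14 reductase, overlapped at 3.47 to 7.95 CPM and 5.42 to 14.0 CPM, and shares 532 exon bases with *Vps51* on the same strand. *Ebp*, the sterol isomerase, was at 7.07 to 8.10 CPM and 5.26 to 11.0 CPM, with a log2 fold change of 0.04 (95% interval -0.66 to 0.75). The step sizes of the arm thus spanned from near 0 for *Ebp* to more than 2-fold for *Nsdhl*, *Fdft1*, *Sc5d* and *Hsd17b7*.

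**Figure D2:**
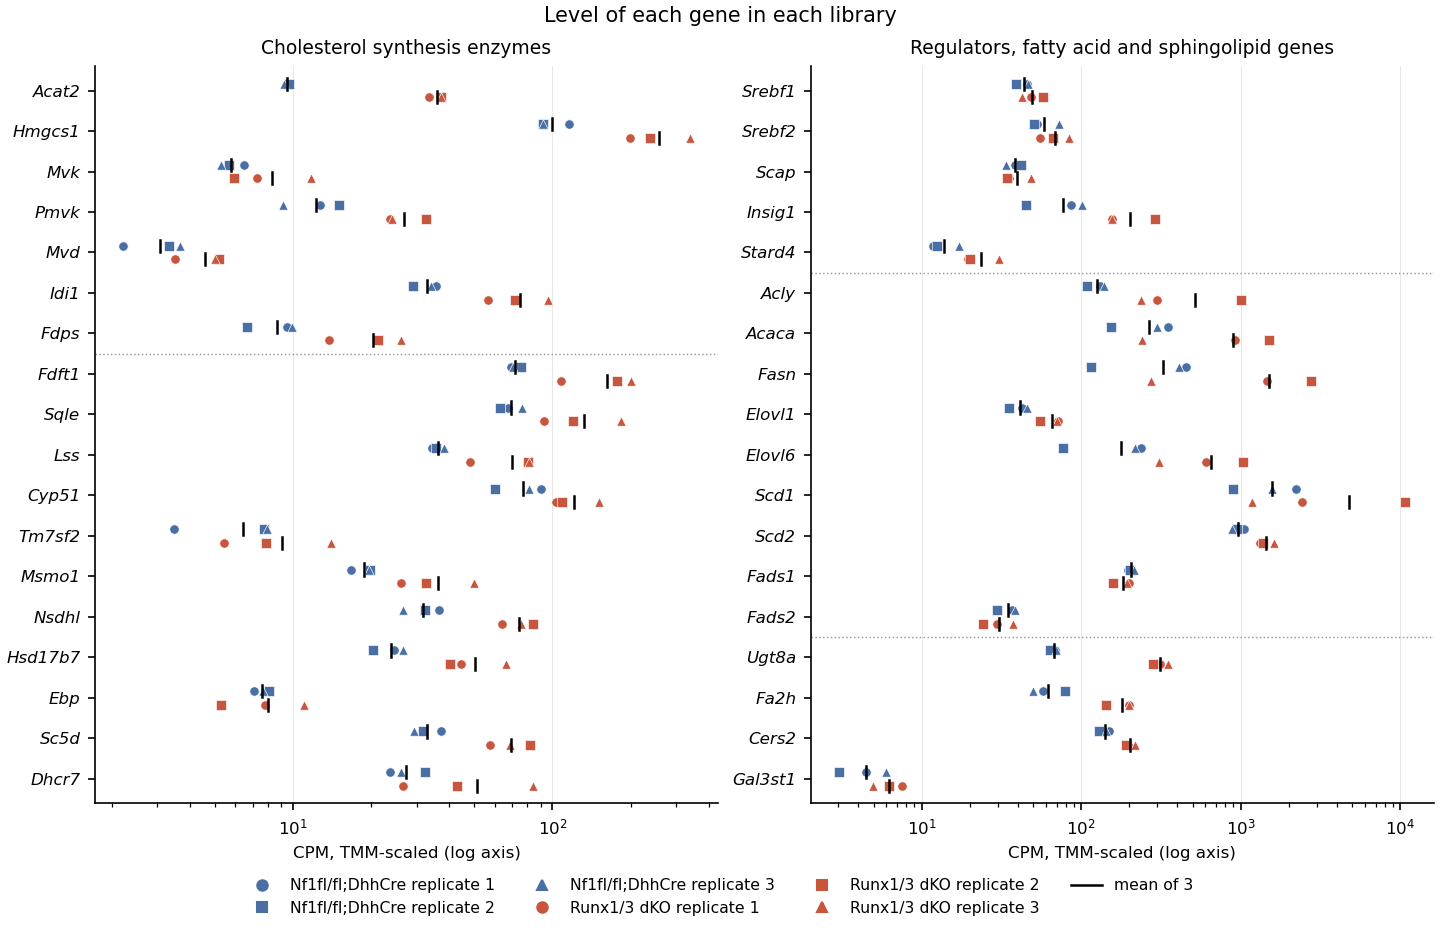
CPM of each of the 36 genes in each of the 6 libraries on log axes, in blue for *Nf1fl/fl;DhhCre* and red for Runx1/3 dKO, with a symbol for each replicate and a black bar at the mean of 3. *Acat2* and *Ugt8a* show tight, separate groups, whereas for *Fasn*, *Acaca* and *Scd1* Runx1/3 dKO replicate 3 (red triangle) lies among the blue points.

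Among the regulators, *Insig1* rose, and the genes of the transcription factors and their escort were not called. *Srebf1* was at 45.8, 39.2 and 46.6 CPM and at 48.3, 57.4 and 42.4 CPM, overlapping, with a log2 fold change of 0.16 (95% interval -0.22 to 0.54). *Srebf2*, the factor best known for driving the cholesterol genes, was at 52.8, 50.8 and 72.4 CPM and at 54.9, 66.2 and 83.7 CPM, with a log2 fold change of 0.22 (-0.27 to 0.72). *Scap* was at 33.9 to 42.2 CPM and 34.0 to 48.5 CPM, with a log2 fold change of 0.03 (-0.40 to 0.47). For these 3 genes the upper bound of the interval lies below a 2-fold increase, and none was called under any of the 16 other fits. The counts do not measure SREBP processing, which is where these proteins are chiefly controlled.

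*Insig1*, which retains SCAP and is itself an SREBP target, was at 85.9, 44.9 and 101 CPM and at 156, 291 and 156 CPM (log2 fold change 1.398, SE 0.36, limma-voom adjusted p = 0.0360). The groups did not overlap, but this call was lost in all 6 leave-one-out fits, with log2 fold changes from 1.08 to 1.67, and with the adipocyte score as a covariate (0.94, limma-voom adjusted p = 0.0881). *Stard4*, a carrier of cholesterol between membranes, was at 11.8 to 17.1 CPM and 19.6 to 30.7 CPM, without overlap and without a call (log2 fold change 0.76, SE 0.25, limma-voom adjusted p = 0.0742).

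The fatty acid genes fell into contrasting sets. *Scd2*, the main stearoyl-CoA desaturase of neural tissue, whose sequence is close to that of *Scd1*, was at 1052, 947 and 886 CPM and rose to 1329, 1371 and 1627 CPM (log2 fold change 0.58, SE 0.13, limma-voom adjusted p = 0.0225). *Elovl1*, which extends very long chains, was at 42.2, 35.3 and 45.6 CPM and rose to 71.8, 54.9 and 70.4 CPM (log2 fold change 0.68, SE 0.17, limma-voom adjusted p = 0.0338). Both calls were lost in 3 of the 6 leave-one-out fits. *Fads1* and *Fads2*, the desaturases of polyunsaturated chains, were the only members with log2 fold changes below 0, at -0.16 (95% interval -0.47 to 0.14) and -0.20 (-0.67 to 0.28), and neither was called.

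The genes of palmitate synthesis were very uneven between the Runx1/3 dKO libraries. *Fasn*, the fatty acid synthase, was at 452, 114 and 413 CPM in *Nf1fl/fl;DhhCre* and at 1451, 2762 and 272 CPM in Runx1/3 dKO. *Acaca*, the acetyl-CoA carboxylase, was at 347, 154 and 300 CPM and at 918, 1506 and 240 CPM. *Scd1* was at 2218, 901 and 1564 CPM and at 2415, 10780 and 1168 CPM. In all of these, replicates 1 and 2 were above every *Nf1fl/fl;DhhCre* library and replicate 3 was among them, and within *Nf1fl/fl;DhhCre* replicate 2 was lowest. None of the 3 was called, with log2 fold changes of 1.89 (SE 0.89) for *Fasn*, 1.45 (SE 0.66) for *Acaca* and 1.09 (SE 0.76) for *Scd1*.

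*Acly*, the citrate lyase that supplies acetyl-CoA, and *Elovl6*, which extends palmitate, showed the same imbalance without overlap. *Acly* was at 131, 108 and 139 CPM and at 299, 1006 and 236 CPM (log2 fold change 1.72, SE 0.51, limma-voom adjusted p = 0.0556). *Elovl6* was at 238, 76.7 and 216 CPM and at 607, 1035 and 309 CPM (log2 fold change 1.87, SE 0.55, limma-voom adjusted p = 0.0523). Without Runx1/3 dKO replicate 3, *Fasn*, *Acaca*, *Acly* and *Elovl6* were all called, with log2 fold changes of 2.86, 2.23, 2.13 and 2.34 (limma-voom adjusted p = 0.0346, 0.0231, 0.0401 and 0.0347).

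Adipocyte markers shared part of this order: their sum was also lowest in replicate 2 of *Nf1fl/fl;DhhCre* and in replicate 3 of Runx1/3 dKO, but highest in Runx1/3 dKO replicate 1, where these 5 genes were highest in replicate 2. The summed level of 14 adipocyte markers (*Adipoq*, *Plin1* and others, none at 0 in all libraries) was 1140, 278 and 1124 CPM in *Nf1fl/fl;DhhCre* and 5370, 4028 and 471 CPM in Runx1/3 dKO replicates 1 to 3, and 0 of the 14 were called in either direction (limma-voom), with 0 at an unadjusted p under 0.05, whereas without Runx1/3 dKO replicate 3, 6 of the 14 were higher. The 7 brown adipocyte markers summed to 298, 162 and 414 CPM and to 982, 1367 and 178 CPM, with 1 of the 7 (*Ppargc1a*) higher, 3 without that replicate, and *Ucp1* at 1.91 to 103 CPM and 23.0 to 838 CPM. With the adipocyte score as a covariate, the log2 fold changes fell to 0.35 for *Fasn*, 0.37 for *Acaca* and 0.07 for *Scd1*, and were 1.21 for *Acly* and 0.94 for *Elovl6*, neither called (limma-voom adjusted p = 0.160 and 0.0502). *Scd2* stayed at 0.67 and was called (limma-voom adjusted p = 0.0165), and *Elovl1* was at 0.65 and lost its call (limma-voom adjusted p = 0.0684). The median over the 9 fatty acid genes went from 1.09 to 0.37 with that covariate, whereas that of the mevalonate arm went from 1.17 to 1.34 and that of the squalene arm from 0.91 to 1.15. *Fasn*, *Acaca*, *Scd1*, *Acly* and *Elovl6* were lowest in *Nf1fl/fl;DhhCre* replicate 2 and highest in Runx1/3 dKO replicate 2. These are also the libraries where skeletal muscle markers stood apart, with sums of 20080 and 50970 CPM. With the muscle score as a covariate the median over the 9 fatty acid genes was 0.95. The part of fat cells or muscle in the fatty acid values was not tested.

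**Figure D3:**
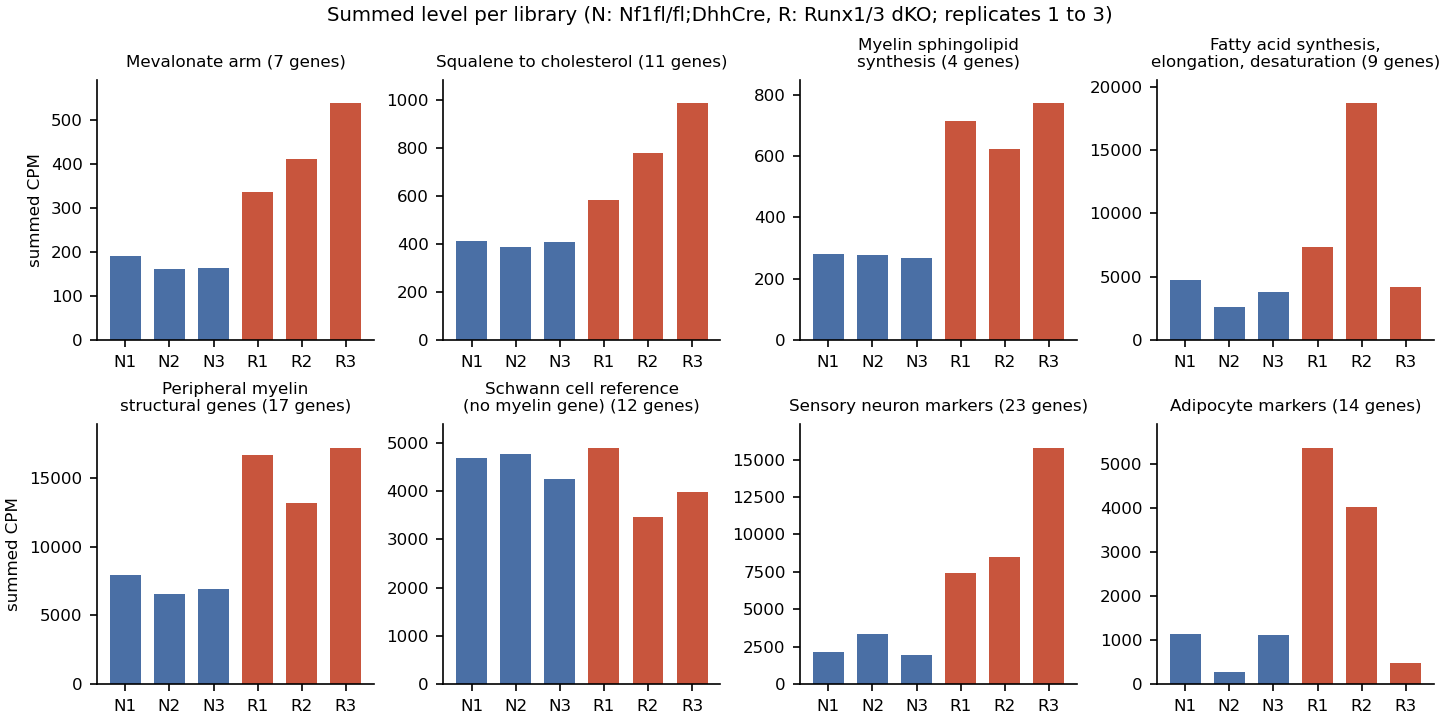
Summed CPM (vertical axes, each starting at 0) of gene lists in each library, with *Nf1fl/fl;DhhCre* replicates 1 to 3 as N1 to N3 in blue and Runx1/3 dKO replicates 1 to 3 as R1 to R3 in red. The sums of both cholesterol arms are highest in R3, where the fatty acid sum (4154 CPM) and the adipocyte sum (471 CPM) are lowest of the 3 Runx1/3 dKO libraries.

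The cholesterol arms had another order among the libraries. The 18 genes of both arms summed to 603, 548 and 572 CPM in *Nf1fl/fl;DhhCre* and to 921, 1192 and 1525 CPM in Runx1/3 dKO. Replicate 3 was the highest Runx1/3 dKO library for 5 of 7 mevalonate genes and 9 of 11 squalene genes. Among the 9 fatty acid genes it was the highest for 2 and the lowest for 5. The 23 sensory neuron markers ranked the Runx1/3 dKO libraries in the order of the cholesterol arms, with sums of 2141, 3349 and 1948 CPM in *Nf1fl/fl;DhhCre* and of 7437, 8469 and 15800 CPM in Runx1/3 dKO. Of the 23, none at 0 in all libraries, 21 were higher and 0 lower by limma-voom. Since this list does not overlap between the groups, its part cannot be told apart from that of genotype. Without replicate 3, 17 of the 23 neuron markers, 4 of 7 mevalonate genes and 4 of 11 squalene genes were higher, where 8.79% of all genes were, with medians of 1.01 and 0.64 on the log2 scale for the arms.

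With all libraries, myelin sphingolipid synthesis held the largest change of all members. Without Runx1/3 dKO replicate 3, *Fasn* (2.86) and *Elovl6* (2.34) were larger than *Ugt8a*, which reached at most 2.30 in any leave-one-out fit. *Ugt8a*, the ceramide galactosyltransferase that makes galactosylceramide (chromosome 3, 125865271 to 125938619, minus strand), was at 68.6, 63.9 and 69.0 CPM and at 309, 282 and 349 CPM. Its means were 67.2 ± 2.81 and 314 ± 33.8 CPM (SD, n = 3), which gave a log2 fold change of 2.22 (SE 0.13, limma-voom adjusted p = 0.00374). *Fa2h*, which hydroxylates the fatty acid of these lipids (chromosome 8, 111345135 to 111393824), was at 57.22, 79.18 and 49.97 CPM and at 199, 142 and 200 CPM (log2 fold change 1.55, SE 0.22, limma-voom adjusted p = 0.00977). Neither had overlapping groups, and both were called in all 6 leave-one-out fits and in all 10 other settings.

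*Cers2*, the ceramide synthase for very long chains, was at 149, 130 and 142 CPM and at 196, 192 and 217 CPM, a smaller rise (log2 fold change 0.53, SE 0.12, limma-voom adjusted p = 0.0245) whose call was lost in 4 of the 6 leave-one-out fits. *Gal3st1*, which sulfates galactosylceramide to sulfatide, was at 4.44, 3.04 and 5.97 CPM and at 7.49, 6.25 and 4.95 CPM, overlapping and not called (log2 fold change 0.50, 95% interval -0.29 to 1.29). Oligodendrocytes also use *Ugt8a* and *Fa2h*, and the 8 oligodendrocyte markers, none at 0 in all libraries, summed to 8.996 to 10.33 CPM in *Nf1fl/fl;DhhCre* and 8.252 to 11.27 CPM in Runx1/3 dKO. Most of that sum was *Ermn*, at 6.32 to 9.24 CPM, overlapping. *Mog* was at most at 0.179 CPM and *Olig2* at most at 0.399 CPM, and *Mobp* was at 0 to 0.238 CPM and 0.319 to 1.32 CPM, without overlap and with too few reads to be tested. Of the 8, 2 were tested and 0 called by limma-voom (0 at an unadjusted p under 0.05), and their part in the members' values was not tested.

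Levels of different genes were compared per kilobase of exon. *Scd1* and *Scd2* had the highest mean levels in both groups, at 319 and 176 CPM per kb in *Nf1fl/fl;DhhCre* and 979 and 264 CPM per kb in Runx1/3 dKO. The Runx1/3 dKO mean of *Scd1* rested mainly on replicate 2, at 2415, 10780 and 1168 CPM in replicates 1 to 3. *Ugt8a* moved from rank 15 of 36 (14.8 CPM per kb) to rank 6 (69.1 CPM per kb), the largest climb among the members called. *Cers2* went from rank 4 to rank 10 although it was called higher, and *Fads1* from rank 3 to rank 13. Among the cholesterol enzymes *Hmgcs1* led in both groups, at 21.7 and 56.1 CPM per kb, and *Tm7sf2* was lowest of all 36, at 1.45 and 2.07 CPM per kb.

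Other genes of these pathways came from lists that leave out the members, and their counts stand beside 11.1% of all genes higher and 8.22% lower. Of 15 further genes of cholesterol synthesis and SREBP processing, 2 were higher (3 without Runx1/3 dKO replicate 3) and 0 lower, with 5 of the 15 at an unadjusted p under 0.05 by limma-voom. *Aacs*, which activates acetoacetate for lipid synthesis, was at 9.99, 4.65 and 10.5 CPM and at 32.5, 52.1 and 18.7 CPM (log2 fold change 2.002, SE 0.49, limma-voom adjusted p = 0.0325). Its lowest libraries, *Nf1fl/fl;DhhCre* replicate 2 and Runx1/3 dKO replicate 3 within their groups, were also those of the adipocyte marker sum, whose part in this result was not tested.

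Of 20 genes of cholesterol uptake, efflux and esterification that were tested, 2 were higher and 3 lower, with a median log2 fold change of -0.29, and without Runx1/3 dKO replicate 3 the counts were 0 and 2 of 21. *Cyp27a1*, a sterol hydroxylase, fell from 20.2, 25.3 and 24.3 CPM to 11.6, 10.2 and 9.90 CPM (log2 fold change -1.14, limma-voom adjusted p = 0.0127). *Soat1*, which esterifies cholesterol for storage, fell by 0.87 on the log2 scale (limma-voom adjusted p = 0.0452). Higher were *Abcg1*, a cholesterol exporter, at 0.92 (limma-voom adjusted p = 0.0425), and *Lrp8*, a lipoprotein receptor, at 0.83 (limma-voom adjusted p = 0.0424). *Lrp1*, a further such receptor, fell by 0.81 (limma-voom adjusted p = 0.0201). Macrophages use *Cyp27a1* and *Soat1*, and the 12 macrophage markers summed to 1402 to 2909 CPM in *Nf1fl/fl;DhhCre* and 240 to 576 CPM in Runx1/3 dKO, with 10 of 12 lower (8 without Runx1/3 dKO replicate 3). Their part in the result was not tested.

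Of 25 further fatty acid genes, 7 were higher and 0 lower, with a median log2 fold change of 1.42, and without Runx1/3 dKO replicate 3, whose adipocyte sum is the lowest of its group, 14 were higher and 0 lower. *Elovl7*, an elongase of long chains, was at 72.3, 114 and 87.6 CPM and at 283, 323 and 450 CPM (log2 fold change 1.94, SE 0.23, limma-voom adjusted p = 0.00764). *Elovl4*, which makes the longest chains, was at 5.20 to 7.14 CPM and 19.4 to 27.6 CPM (log2 fold change 1.95, limma-voom adjusted p = 0.00848). *Acsl6*, an acyl-CoA synthetase, was at 8.25 to 13.1 CPM and 27.0 to 56.1 CPM (log2 fold change 2.004, limma-voom adjusted p = 0.0134), and *Fabp7*, a fatty acid binding protein of glia, at 12.4 to 17.8 CPM and 40.3 to 75.0 CPM (log2 fold change 1.87, limma-voom adjusted p = 0.0113). These 4 were highest in Runx1/3 dKO replicate 3, as was the sum of the sensory neuron markers given above, whose part in these values was not tested.

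Of 25 further sphingolipid and ether lipid genes tested, 3 were higher and 1 lower, near the 11.1% and 8.22% of all genes, and without Runx1/3 dKO replicate 3 the counts were 4 and 1. The genes named here are single calls, and nothing is read from the list. *Cers6*, a ceramide synthase for shorter chains, fell from 84.1, 84.2 and 89.5 CPM to 38.3, 25.3 and 43.8 CPM (log2 fold change -1.29, SE 0.20, limma-voom adjusted p = 0.0115), the opposite direction to *Cers2*. *Cers4* rose from 52.1, 58.4 and 58.2 CPM to 80.9, 96.5 and 122 CPM (log2 fold change 0.81, limma-voom adjusted p = 0.0230). *Tmem189*, the desaturase that makes plasmalogens, ether lipids abundant in myelin, rose from between 12 and 15.1 CPM to 31.9, 24.3 and 37.2 CPM (log2 fold change 1.17, limma-voom adjusted p = 0.0158). *Sptssb*, a small subunit of serine palmitoyltransferase, had 0 reads in all 3 *Nf1fl/fl;DhhCre* libraries and 0.924 to 2.06 CPM in Runx1/3 dKO, at least 6.80-fold higher taking 3 reads per library as the floor.

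The members were set beside the structural genes of peripheral myelin. Of 17 such genes (*Mbp*, *Pmp22*, *Prx* and others), 14 were higher (11 without Runx1/3 dKO replicate 3) and 0 lower, with a median log2 fold change of 1.32. *Prx*, a scaffold protein of myelinating SCs, was at 99.9, 89.1 and 104 CPM and at 266, 256 and 299 CPM (log2 fold change 1.49, SE 0.12, limma-voom adjusted p = 0.00596). With all libraries, only *Ugt8a* (2.22) among the members lay above the largest of the structural genes, *Drp2* at 1.96. Without Runx1/3 dKO replicate 3, *Fasn*, *Elovl6*, *Acaca* and *Acly* were at 2.13 to 2.86, and *Drp2* is not given for that fit. *Cnp* and *Gjc3* were not called, at 0.04 and -0.04. Whether the median of the members differs from that of the structural genes was not tested.

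The regulators of myelination formed a further list. Of 16 transcription and growth regulators, *Srebf1* and *Srebf2* among them, 0 were higher and 2 lower in the limma-voom fit. Of all genes, 11.1% were higher and 8.22% lower. An unadjusted p under 0.05 was found for 4 of the 16, and for 5513 of all 15652 genes tested. Without Runx1/3 dKO replicate 3, 0 were higher and 1 was lower, where 8.79% and 3.92% of all genes were. Nothing is read from this list as a group. *Ppard*, a nuclear receptor for fatty acids, fell by 0.84 on the log2 scale (limma-voom adjusted p = 0.0189), and *Wwtr1*, the Hippo pathway effector TAZ, fell by 0.56 (limma-voom adjusted p = 0.0359). *Egr2*, the driver of SC myelin genes, was at 99.5, 77.6 and 81.2 CPM and at 123, 75.3 and 108 CPM. *Sox10*, which marks all SCs, was at 227, 195 and 241 CPM and at 254, 200 and 256 CPM, so that neither separated the groups.

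Relative to SC markers the differences kept their size or not depending on the list. For the 12 SC reference markers outside myelin (*Sox10*, *Erbb3*, *Cdh19* and others), the mean log2 CPM differed by -0.04 between the groups, which overlapped. Of the 12, 2 were higher (*S100b*, log2 fold change 1.52, and *Sema3b*, 0.65) and 1 lower (*Lgi4*, -0.70) by limma-voom. Without Runx1/3 dKO replicate 3, 1 was higher and 1 lower. Of all genes, 11.1% were higher and 8.22% lower with all libraries. The mean of this list thus averages changes in both directions. Taken relative to that mean in each library, 34 of 36 members had differences above 0, 23 did not overlap between the groups, all of them higher, and the median difference was 0.95. Under that scaling 19.1% of all genes tested were separate and higher and 17.8% separate and lower. The mean log2 CPM of the 13 general SC markers, a list that holds myelin genes, was 0.39 higher in Runx1/3 dKO. Relative to that mean, 30 of 36 members were above 0, with 14 separate and higher and 4 separate and lower, and the median difference was 0.52. The share of all genes is not given for that list. Relative to the 17 structural myelin genes, whose mean log2 CPM was 1.18 higher in Runx1/3 dKO, the median member difference was -0.27, with 11 of 36 above 0, 2 separate and higher and 10 separate and lower, where 2.63% and 71.2% of all genes were. Such a reference moves all members by the same amount. Of 12 fibroblast markers, 8 were lower and 1 (*Thy1*, log2 fold change 0.98) higher, where 8.22% and 11.1% of all genes were. Their sums were 10040 to 10440 CPM and 3837 to 6290 CPM. Without Runx1/3 dKO replicate 3, 3 were lower and 1 higher, where 3.92% and 8.79% of all genes were. Skeletal muscle markers overlapped between the groups, with 0 of 13 called by limma-voom (0 at an unadjusted p under 0.05). They summed to 604, 20080 and 98.4 CPM in *Nf1fl/fl;DhhCre* and to 306, 50970 and 437 CPM in Runx1/3 dKO, so that replicate 2 of each group stood apart. The part of fibroblasts and muscle in the members' values was not tested.

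The *Runx1* level of Runx1/3 dKO replicate 3 lay above every *Nf1fl/fl;DhhCre* library. Without that replicate, 15 of 36 members were higher and 0 lower, and the median log2 fold change was 0.74. Of these 15, 11 were also called with all libraries. In that fit 8.79% of all genes were higher and 3.92% lower. By role the counts were 4 of 7, 4 of 11, 0 of 5 regulators, 5 of 9 fatty acid genes and 2 of 4 sphingolipid genes. The calls lost were *Cers2*, *Elovl1*, *Fdps*, *Insig1*, *Lss* and *Sqle*, and those gained were *Acaca*, *Acly*, *Elovl6* and *Fasn*. *Acat2*, *Hmgcs1*, *Nsdhl*, *Ugt8a* and *Fa2h* were called in every leave-one-out fit. Without *Nf1fl/fl;DhhCre* replicate 1 these 5 were the only members called, and in that fit 1.204% of all genes were higher.

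**Figure D4:**
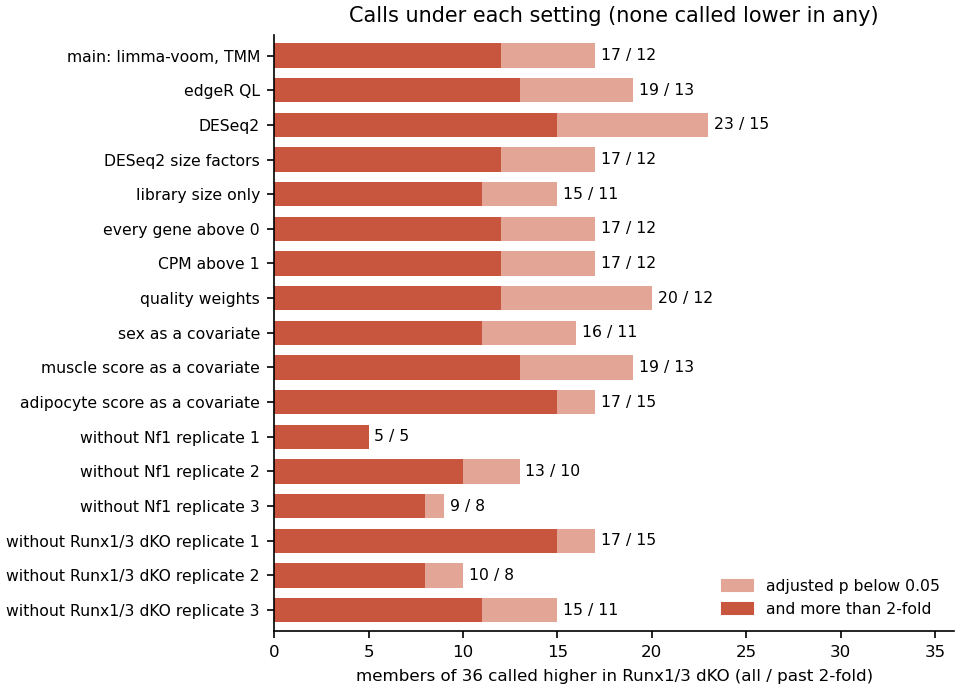
Number of the 36 members called higher in Runx1/3 dKO (horizontal axis) under each setting, in full at an adjusted p below 0.05 and in dark red also past 2-fold, with both numbers beside each bar. The main fit gives 17 and 12, DESeq2 gives the most (23 and 15) and the fit without *Nf1fl/fl;DhhCre* replicate 1 the fewest (5 and 5).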

How the data were processed

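Bulk RNA-seq counts from 6 libraries, 3 per genotype, were analysed. The deposited values are raw counts of reads per gene symbol, which the authors made, per the labels and the study's methods, by amplifying total RNA (Ovation RNA-Seq System, Nextera XT libraries), aligning paired-end reads to mm10 with TopHat and counting with featureCounts, after base calling with CASAVA 1.4. The annotation, strand setting and handling of multiply aligned reads are not given in the sources used here. Groups came from the labels. Replicate numbers follow the order of the labels and pair no mice, and the mouse numbers of some libraries differ between label and deposited table within a genotype. P-values measure the spread between these libraries, and no pair of replicates agreed within sampling noise.

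The filterByExpr function of edgeR 4.0.16 kept genes with a minimum count of 10 and a total of 15. After TMM scaling, limma 3.58.1 (voom, R 4.3.3) was fitted with genotype only, with Benjamini-Hochberg adjustment over 15652 genes. A gene was called at an adjusted p below 0.05, and the study's rule adds a change of more than 2-fold. CPM are counts relative to the TMM-scaled library size, in which 3 reads are 0.179 to 0.247 CPM. Reference log2 CPM used a prior count of 0.5. Gene positions and exon lengths (the union of exons) are from GENCODE M21. The fit was also run on simulated data, whose outcome is not given here and is not used for any result above.

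The members, gene lists and marker lists were chosen with earlier results of these data known. All 36 members were named with values. Of the further pathway and regulator lists at most the 4 genes with the largest absolute log2 fold change among those called were named, and *Lrp1*, outside that rule, completes a count. *Egr2* and *Sox10*, which were not called, were added to the regulators after their values were seen. Some genes that meet the rule are not reported here. The structural myelin genes and markers named are examples chosen after their values were seen. Alternatives were DESeq2 1.42.0, its size factors within voom, the quasi-likelihood test of edgeR, library size only, every gene above 0 counts, CPM above 1 in at least 3 libraries, quality weights, sex, muscle score or adipocyte score as a covariate, other SC reference lists, and leaving out each library. Figures were drawn with matplotlib 3.10.9.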

Additional observations from a re-analysis of the deposited data

How the results depend on the processing

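No member was called lower in any of the 17 fits by limma-voom, edgeR or DESeq2. The settings other than leaving out libraries gave 15 to 23 members higher and 11 to 15 past 2-fold, all within 1.5 times the main counts of 17 and 12. Of all genes, 8.56% (every gene above 0 counts) to 15.88% (DESeq2, which gave the 23) were higher in the same fits. Of the 17 main calls, 13 were called in all 10 of these fits. *Elovl1*, *Fdps*, *Insig1* and *Sqle* were each lost in at least 1. Leaving out each library in turn gave 5 to 17 members higher and 5 to 15 past 2-fold, with 5 and 5 without *Nf1fl/fl;DhhCre* replicate 1, 9 and 8 without replicate 3 of that group, and 10 and 8 without Runx1/3 dKO replicate 2. The share of all genes called higher in those fits was 1.204%, 3.95% and 5.01%, and the cause was not tested. The median log2 fold change ranged from 0.74 to 1.19 over the fits without 1 library, highest without Runx1/3 dKO replicate 1. The median difference relative to SC markers was 0.95 with the reference outside myelin and 0.52 with the general SC list, which holds myelin genes. With the structural myelin genes it was -0.27. That reference was itself 1.18 higher in Runx1/3 dKO and moves all genes by the same amount, so no reversal is read from the sign. No paired analysis was possible because replicate numbers are only the order of the labels. With 3 libraries a group, a missed threshold leaves changes within the printed intervals possible.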
